A study of Mus musculus with 12 samples.

Results

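The macrophage identity genes are a set of 35 mouse genes whose transcripts mark tissue macrophages, here measured by RNA sequencing in embryonic palatal shelves. The members were chosen by name, with earlier results of these data known, and each of the 35 was found on exactly 1 of the 56691 gene rows of the deposited tables. The 12 libraries came from palatal shelves, the paired outgrowths that later fuse into the palate, taken at gestational day 12, with 3 libraries in each of 4 groups. The KO shelves carried a conditional knockout of Dnmt1, the maintenance DNA methyltransferase, and received no treatment. The AzadC shelves were wild type and exposed to 5-aza-2'-deoxycytidine, a cytidine analogue that traps DNA methyltransferases. The vehicle shelves were wild type and given the vehicle of that drug, and the control shelves were wild type and untreated. The labels differ on the pools: the extraction protocol has 2 embryos of one genotype in each library, 6 embryos in each group and at least 3 litters per genotype, whereas the design text speaks of 3 pooled animals as the replicates. The sources used here give no Cre driver, no account of the deleted part of Dnmt1 and no dose, route or time for AzadC, so they do not settle whether the macrophages themselves carried the deletion.

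Tissue macrophages of the embryo arise from yolk sac and fetal liver progenitors and settle in organs as these form. They depend on CSF1R, a receptor tyrosine kinase for CSF1 and IL-34, and on the transcription factor PU.1, the product of Spi1. They engulf dying cells and debris through scavenger, lectin, complement and Fc receptors, many of which signal through the adaptors TYROBP and FcRγ (Fcer1g). Their most abundant products include the C1q chains, lysosomal proteases and lysozyme.

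The libraries held 12640536 to 33113790 expected counts, the unit in which RSEM reports estimated reads per gene. Dnmt1 itself stood at 201, 180 and 191 CPM (counts scaled to library size) in KO shelves, against 286, 278 and 258 CPM in control shelves (log2 fold change -0.52, SE 0.07, edgeR quasi-likelihood test with Benjamini-Hochberg adjustment, adjusted p = 0.000369). It averaged 434 CPM in AzadC shelves and 451 CPM in vehicle shelves, both above the 274 CPM of control shelves. Genes of palatal mesenchyme summed to 5599 to 5882 CPM in KO shelves, 5916 to 6123 CPM in AzadC shelves, 4383 to 6142 CPM in vehicle shelves and 6573 to 7508 CPM in control shelves. Skeletal muscle genes were higher in every KO library than in every control library and varied widely between libraries of one group. They summed to 1273, 603 and 212 CPM in KO libraries 1 to 3, to 57.0, 49.8 and 213 CPM in AzadC libraries, to 85, 511 and 54.4 CPM in vehicle libraries, and to 127, 63.1 and 9.19 CPM in control libraries. KO library 3 thus lay below vehicle library 2 and AzadC library 3. The labels name no separate cultures or days, and p-values measure the spread between pools of embryos.

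Macrophage identity genes were higher in KO shelves as a group. Their summed level was 565, 552 and 529 CPM in the 3 KO libraries and 250, 267 and 268 CPM in the AzadC libraries. It was 198, 163 and 159 CPM in the vehicle libraries and 181, 130 and 128 CPM in the control libraries. Every KO library lay above every AzadC library, and every AzadC library above every vehicle library, while vehicle and control libraries overlapped. In whole shelves, more macrophages, more of these transcripts per macrophage and transcripts from other cells cannot be told apart.

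Of the 33 members that passed the filter on low counts, 28 were higher and 0 lower in KO than in control shelves by edgeR's quasi-likelihood test at an adjusted p below 0.05, where 7.83% of all 17335 tested genes were called higher and 6.43% lower. Their median log2 fold change was 1.94, a 3.83-fold difference, beside -0.0026 over all tested genes. Against vehicle, 27 members were higher and 0 lower in KO shelves (6.7% of all genes were higher and 4.13% lower), with a median log2 fold change of 1.67. Both comparisons share the KO libraries. Counting libraries instead, the 3 KO values of 29 of the 33 tested members all exceeded the 3 control values (16.9% of all tested genes did so, and 15.1% lay wholly below), and those of 29 exceeded the vehicle values (16% of all tested genes, with 14.4% wholly below). No tested member lay wholly below either group. With the mean log2 CPM of the muscle genes as a covariate, chosen after seeing the data, 25 members stayed higher in KO than in control shelves, without Spi1, Coro1a and Cd83, and 26 than in vehicle shelves, without Coro1a. Over all genes, 941 were then higher than in control and 1191 than in vehicle shelves, beside 1358 and 1162 without the covariate.

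**Figure D1:**
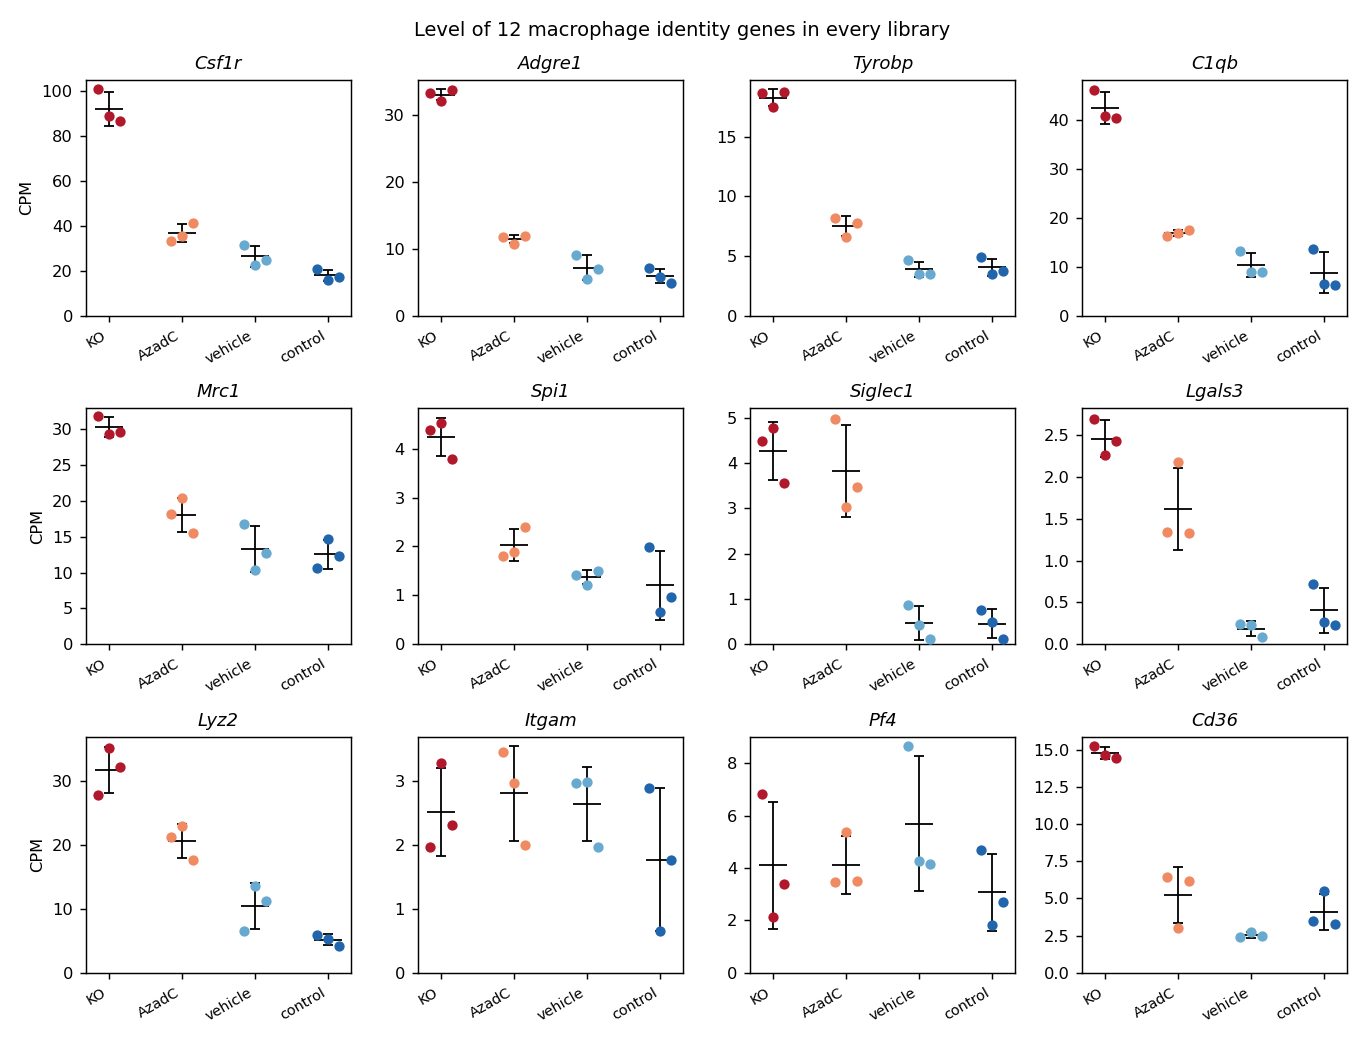
Level in CPM (linear axis) of 12 members in each of the 12 libraries, by group; points are libraries, bars are the mean and SD of 3. Csf1r, Adgre1 and Tyrobp stood above every other group in all 3 KO libraries, Siglec1 and Lgals3 were above vehicle in every AzadC library too, and Itgam and Pf4 overlapped across the 4 groups.

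Among the receptors for growth factors and chemokines, Csf1r stood at 100.8, 89.0 and 86.5 CPM in KO shelves and 33.4, 35.6 and 41.5 CPM in AzadC shelves. It stood at 31.7, 22.7 and 24.8 CPM in vehicle shelves and 20.7, 16.1 and 17.3 CPM in control shelves. The lowest KO library held more than the highest library of any other group. The KO level was 5.10 times that of control (log2 fold change 2.35, SE 0.14, edgeR adjusted p = 1.78e-07) and 3.51 times that of vehicle (1.81, SE 0.13, edgeR adjusted p = 1.53e-06). Cx3cr1, the receptor for the membrane-bound chemokine CX3CL1, averaged 32.0 ± 1.91 CPM in KO, 15.7 ± 2.69 in AzadC, 10.9 ± 1.67 in vehicle and 9.94 ± 1.17 in control shelves (SD, n = 3 each). Its KO libraries also lay above all others, and its log2 fold change was 1.68 against control and 1.57 against vehicle.

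All 5 signalling adaptors and Fc receptors rose in KO shelves against both vehicle and control. Tyrobp, the ITAM adaptor shared by TREM2 and other receptors, stood at 18.7, 17.5 and 18.7 CPM in KO shelves, 8.20, 6.60 and 7.75 CPM in AzadC shelves, 4.64, 3.53 and 3.47 CPM in vehicle shelves and 4.89, 3.52 and 3.77 CPM in control shelves. Its log2 fold change was 2.16 (SE 0.17, edgeR adjusted p = 3.37e-06) against control. Trem2, which binds lipids and lipoproteins, averaged 9.59 ± 0.874 CPM in KO and 1.67 ± 0.620 CPM in control shelves (SD, n = 3 each), a log2 fold change of 2.49. Fcgr3, a low-affinity receptor for IgG, reached 12.5, 18.7 and 14.2 CPM in KO shelves and 10.1, 9.63 and 8.98 CPM in AzadC shelves. Its levels were 4.64, 3.44 and 4.03 CPM in vehicle shelves and 3.04, 2.72 and 3.48 CPM in control shelves, so that both KO and AzadC libraries lay apart from both. Fcgr1, the high-affinity IgG receptor, and Fcer1g, the common chain that Fc receptors signal through, had log2 fold changes of 2.13 and 1.68 against control.

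The 3 chains of complement C1q, the recognition protein of the classical pathway, rose by similar amounts. Their genes lie next to each other on the minus strand of mouse chromosome 4 (build mm10), C1qb at chr4:136880129-136886187, C1qc at chr4:136889804-136893065 and C1qa at chr4:136895917-136898803. C1qb stood at 46.3, 40.8 and 40.6 CPM in KO shelves, 16.4, 17.0 and 17.6 CPM in AzadC shelves, 13.3, 8.93 and 8.87 CPM in vehicle shelves and 13.7, 6.51 and 6.33 CPM in control shelves. Control library 1 was the highest of its group for all 3 chains, at 32.6 CPM summed, against 16.7 and 13.6 CPM in the other control libraries. The log2 fold changes in KO against control were 2.14 (SE 0.27) for C1qa, 2.24 (SE 0.25) for C1qb and 2.25 (SE 0.31) for C1qc, with edgeR adjusted p of 0.000179, 6.95e-05 and 0.000376. Without control library 1 the log2 fold changes were 2.54, 2.73 and 2.81. Against vehicle they were 2.31, 2.05 and 2.24.

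Promoter windows for C1qb and C1qc are shown because these neighbouring members moved together. C1qa moved with them but had no window. Each window holds 250 bases before to 50 bases after the RefSeq transcription start (build GRCm38.p6). Both are on the minus strand, at chr4:136886151-136886450 for C1qb and chr4:136892865-136893164 for C1qc, and run 5′ to 3′. Capitals mark GAGGAA, the core of the sites that PU.1 is known to bind, or its reverse complement TTCCTC.
C1qb: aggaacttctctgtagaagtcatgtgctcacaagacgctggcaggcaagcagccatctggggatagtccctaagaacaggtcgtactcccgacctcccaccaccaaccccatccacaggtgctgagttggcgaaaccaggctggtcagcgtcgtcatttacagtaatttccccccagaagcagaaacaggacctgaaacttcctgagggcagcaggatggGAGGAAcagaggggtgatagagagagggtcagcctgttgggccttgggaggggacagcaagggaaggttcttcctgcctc
C1qc: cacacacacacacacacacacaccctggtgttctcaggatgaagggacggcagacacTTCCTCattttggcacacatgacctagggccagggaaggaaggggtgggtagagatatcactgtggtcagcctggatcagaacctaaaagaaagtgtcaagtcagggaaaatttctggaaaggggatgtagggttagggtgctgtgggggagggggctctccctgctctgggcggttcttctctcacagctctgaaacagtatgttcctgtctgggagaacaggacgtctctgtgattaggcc
Each window held 1 copy of the motif, on the gene's own strand in C1qb and on the opposite strand in C1qc. The C1qb window held 6 CpG dinucleotides and the C1qc window 3.

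The scavenger and endocytic receptors were the most mixed role. Of the 6 that passed the filter, 4 rose in KO shelves, namely Siglec1, Cd36, Cd68 and Mrc1, while Cd14 and Lyve1 did not pass the test. Siglec1, the sialic acid receptor CD169, stood at 4.48, 4.77 and 3.56 CPM in KO shelves and 4.96, 3.03 and 3.47 CPM in AzadC shelves. It stood at 0.866, 0.418 and 0.121 CPM in vehicle shelves and 0.745, 0.498 and 0.114 CPM in control shelves. KO and AzadC libraries overlapped each other and lay far above both other groups, which also overlapped. The KO level was 8.75 times that of control (log2 fold change 3.13, SE 0.54, edgeR adjusted p = 0.00184).

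Cd36, a receptor for oxidised lipids and fatty acids, stood at 15.3, 14.7 and 14.5 CPM in KO shelves and 6.46, 3.03 and 6.14 CPM in AzadC shelves. It stood at 2.41, 2.73 and 2.46 CPM in vehicle shelves and 3.46, 5.48 and 3.31 CPM in control shelves. The KO libraries lay close together and apart from all others, and every vehicle library lay below every control library. Mrc1, the mannose receptor CD206, rose less, to 30.3 ± 1.38 CPM in KO shelves, against 12.5 ± 2.0 CPM in control shelves (SD, n = 3 each; log2 fold change 1.27, SE 0.17, edgeR adjusted p = 0.000293). Cd68, a lysosomal membrane protein of phagocytes, had a log2 fold change of 1.47.

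Cd14, the co-receptor for lipopolysaccharide, read 0.594, 0.935 and 1.24 CPM in KO shelves and 0.775, 0.498 and 0.856 CPM in control shelves, and the libraries overlapped (log2 fold change 0.38, SE 0.46, edgeR adjusted p = 0.655). Lyve1, a hyaluronan receptor of lymphatic endothelium and of some resident macrophages, was counted 5, 1 and 12 times in KO libraries and 14, 13 and 4 times in control libraries. That depth fixed its log2 fold change only to -0.29 with an SE of 0.80. Timd4, a phosphatidylserine receptor of resident macrophages, and Cd163, a haemoglobin-haptoglobin receptor, fell under the filter and were not tested. Timd4 was counted 24, 9 and 4 times in KO libraries, 5, 15 and 8 times in AzadC libraries, 1, 6 and 4 times in vehicle libraries and 5, 1 and 0 times in control libraries. Cd163 was counted 2, 1 and 1 times in KO libraries, 0 times in all AzadC libraries, 0, 0 and 2 times in vehicle libraries and 0 times in all control libraries, so it was at the edge of detection throughout.

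Both transcription factors rose. Spi1 stood at 4.39, 4.53 and 3.79 CPM in KO shelves, 1.81, 1.88 and 2.40 CPM in AzadC shelves, 1.42, 1.22 and 1.49 CPM in vehicle shelves and 2.0, 0.651 and 0.970 CPM in control shelves (KO against control log2 fold change 1.78, SE 0.35, edgeR adjusted p = 0.00417). With the muscle signal as a covariate its adjusted p was 0.0653. Irf8, an interferon regulatory factor needed by microglia and monocytes, averaged 6.75 ± 0.256 CPM in KO and 1.65 ± 0.321 CPM in control shelves (SD, n = 3 each), a log2 fold change of 2.02 (SE 0.27, edgeR adjusted p = 0.000311).

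Of the 9 pan-leukocyte and integrin genes, 7 rose in KO against control shelves, and the integrin chains Itgam and Itgb2 did not pass the test. Cd84 and Cd53, surface proteins of many leukocytes, had the largest log2 fold changes of the role, at 2.56 (SE 0.33) and 2.39 (SE 0.33). Cd180, a relative of Toll-like receptors, changed by 1.94, Ptprc, the leukocyte phosphatase CD45, by 1.62, and Laptm5, a lysosomal membrane protein of blood cells, by 1.41. Ptprc stood at 7.72, 7.77 and 8.30 CPM in KO shelves, 3.31, 4.36 and 3.44 CPM in AzadC shelves, 2.66, 2.80 and 2.90 CPM in vehicle shelves and 2.98, 2.07 and 2.68 CPM in control shelves, with KO libraries apart from all others. Cd83, a membrane protein of activated antigen-presenting cells, rose against control (log2 fold change 1.32, SE 0.27, edgeR adjusted p = 0.00523), though not with the muscle covariate (1.07, edgeR adjusted p = 0.0785). Against vehicle it did not pass (0.84, edgeR adjusted p = 0.0584). It did by DESeq2, by limma-voom and, in edgeR, without vehicle library 1 (1.10, edgeR adjusted p = 0.0277).

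Coro1a, an actin-binding protein of leukocytes, showed the smallest change that passed, with 21.3, 23.0 and 19.3 CPM in KO shelves and 15.7, 9.62 and 12.3 CPM in control shelves (log2 fold change 0.75, SE 0.18, edgeR adjusted p = 0.0154). It no longer passed without KO library 2 (0.69, edgeR adjusted p = 0.0675), without control library 2 (0.59, edgeR adjusted p = 0.0653) or with the muscle covariate. Itgam, the CD11b chain of complement receptor CR3, stood at 1.96, 3.30 and 2.31 CPM in KO shelves, 3.47, 2.97 and 2.0 CPM in AzadC shelves, 2.97, 2.99 and 1.98 CPM in vehicle shelves and 2.89, 0.651 and 1.77 CPM in control shelves. The 4 groups overlapped (KO against control log2 fold change 0.50, SE 0.43, edgeR adjusted p = 0.504). Its partner chain Itgb2 changed by 0.70 (SE 0.42, edgeR adjusted p = 0.305).

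Of the 6 other macrophage products, 5 rose in KO shelves. Adgre1, an adhesion G protein-coupled receptor that is the classical surface marker of mouse macrophages, stood at 33.3, 32.1 and 33.7 CPM in KO shelves, 11.7, 10.7 and 11.9 CPM in AzadC shelves, 9.10, 5.43 and 7.06 CPM in vehicle shelves and 7.10, 5.75 and 4.96 CPM in control shelves. The KO level was 5.52 times that of control (log2 fold change 2.46, SE 0.17, edgeR adjusted p = 1.15e-06). In CPM, the AzadC libraries lay between KO and vehicle with no overlap. In the deposited TPM (levels per transcript length), vehicle library 3 (6.70) lay above AzadC libraries 1 and 2 (6.18 and 5.39). Aif1, an actin-bundling protein also called IBA1, and Ctss, the lysosomal protease cathepsin S, had log2 fold changes of 1.88 and 1.96.

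Lyz2, the macrophage lysozyme, stood at 27.8, 35.1 and 32.1 CPM in KO shelves, 21.1, 23.0 and 17.6 CPM in AzadC shelves, 6.43, 13.5 and 11.2 CPM in vehicle shelves and 5.93, 5.25 and 4.22 CPM in control shelves. No pair of groups overlapped, and the KO level was 6.10 times that of control and 3.01 times that of vehicle. Lgals3, the galactose-binding lectin galectin-3, was low throughout, at 2.7, 2.26 and 2.43 CPM in KO shelves and 1.34, 2.18 and 1.34 CPM in AzadC shelves. It read 0.247, 0.225 and 0.0807 CPM in vehicle shelves and 0.716, 0.268 and 0.228 CPM in control shelves, with KO and AzadC libraries above all of these. Lgals3 passed the filter on low counts through its KO and AzadC libraries, so its fold changes rest on few vehicle and control counts. Its log2 fold change in KO shelves was 2.52 (SE 0.45, edgeR adjusted p = 0.0025) against control and 3.73 (SE 0.51, edgeR adjusted p = 0.000401) against vehicle.

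Pf4, a chemokine made by platelets and by some fetal macrophages, was the product that did not pass. It stood at 6.81, 2.12 and 3.38 CPM in KO shelves, 3.47, 5.39 and 3.51 CPM in AzadC shelves, 8.66, 4.27 and 4.15 CPM in vehicle shelves and 4.68, 1.84 and 2.68 CPM in control shelves. All 4 groups overlapped, and library 1 was the highest of the KO, vehicle and control groups. Of 15 platelet and megakaryocyte genes, Pf4 among them, 0 were called higher or lower in KO against control shelves by edgeR's quasi-likelihood test, and 2 were higher at an unadjusted p below 0.05.

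**Figure D2:**
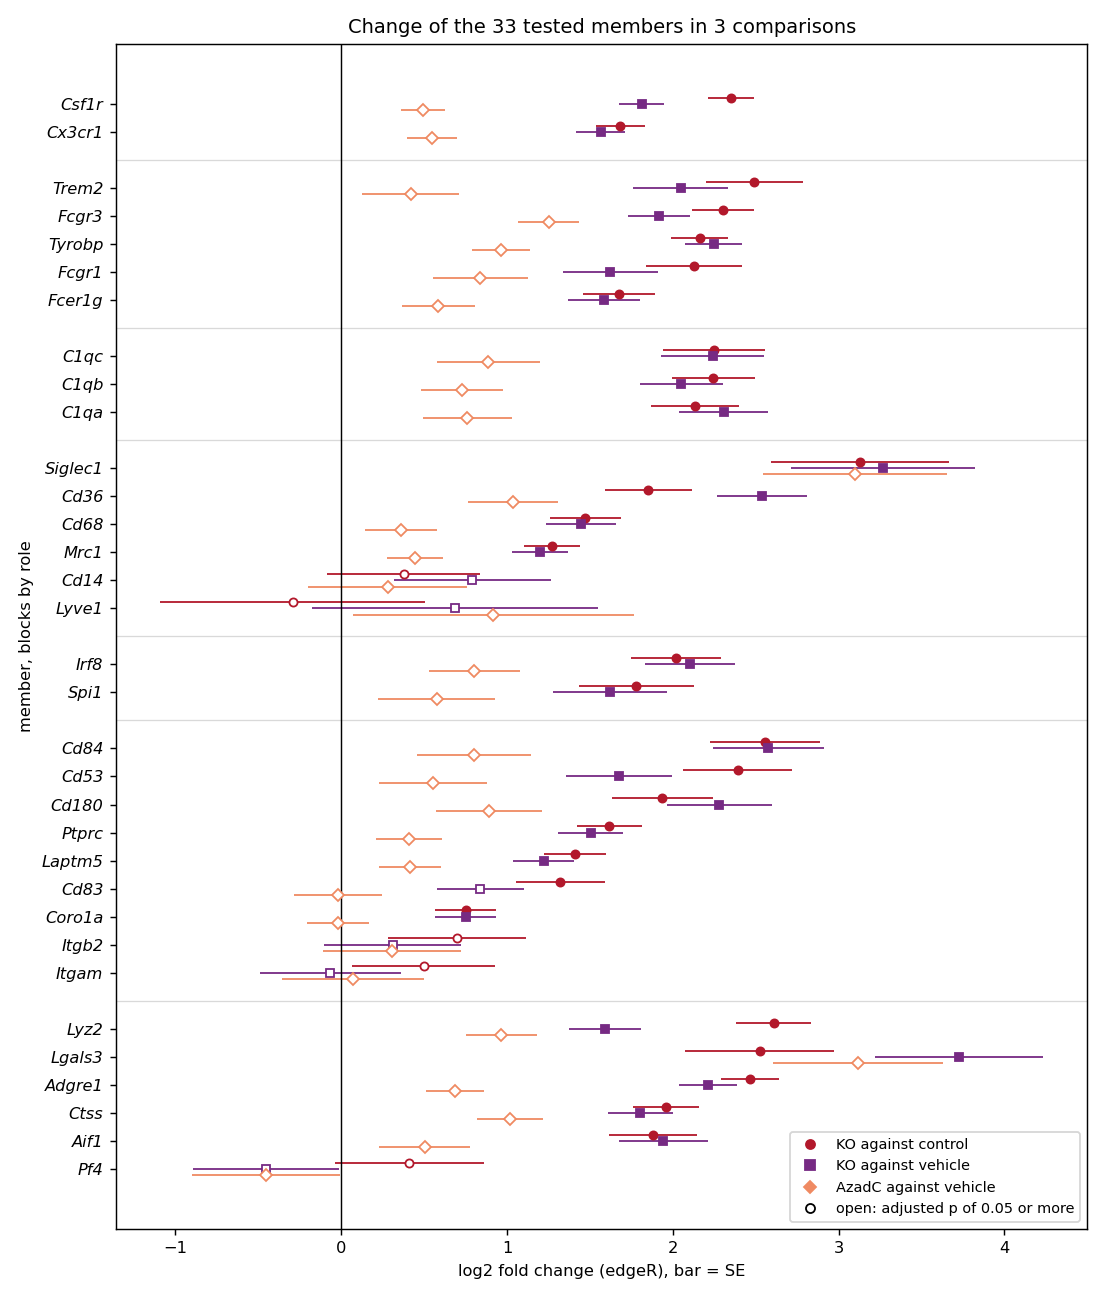
Log2 fold change (edgeR) of the 33 tested members in KO against control, KO against vehicle and AzadC against vehicle, in blocks by role; bars are 1 SE and open symbols have an adjusted p of 0.05 or more. Csf1r reads 2.35 and 1.81 for KO and 0.49 for AzadC, Siglec1 reads above 3 in all 3 comparisons, and all AzadC symbols are open.

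AzadC shelves showed smaller differences that did not pass adjustment. By edgeR's quasi-likelihood test, 0 of the 33 tested members were called higher or lower in AzadC than in vehicle shelves, where 0.00577% of all genes were called higher and the same share lower. At an unadjusted p below 0.05, 20 members were higher and 0 lower, where 3.89% of all genes were higher and 2.49% lower. The median log2 fold change of the members was 0.59, beside -0.0031 over all genes, and the 3 AzadC values of 18 of the 33 tested members all exceeded the 3 vehicle values (6.1% of all tested genes, with 5.76% wholly below). DESeq2 called 8 members higher, among 81 genes called higher in all, and limma-voom called 0. Without vehicle library 1, edgeR called 3 members higher, Siglec1, Fcgr3 and Tyrobp, among 16 genes called higher and 1 lower in all. Vehicle library 1 had the highest summed member level of its group (198 CPM), though Lyz2 was lowest there.

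Lgals3 and Siglec1 had the largest differences in AzadC shelves, at 8.68 and 8.56 times the vehicle level (log2 fold changes 3.12, SE 0.51, edgeR adjusted p = 0.0979, and 3.10, SE 0.55, edgeR adjusted p = 0.114). Both ratios rest on few vehicle counts. Siglec1 had 30 counts in the vehicle group, and Lgals3 read still lower in CPM in each vehicle library. Fcgr3 had 2.38 times the vehicle level (log2 fold change 1.25, SE 0.19, edgeR adjusted p = 0.0666), and Ctss, Cd36, Lyz2 and Tyrobp between 1.95 and 2.05 times. DESeq2 called these 7 and Adgre1. Csf1r differed by 0.49 (SE 0.13, edgeR adjusted p = 0.446) and C1qb by 0.73 (SE 0.25, edgeR adjusted p = 0.63). Coro1a and Cd83 both had log2 fold changes of -0.02, and Pf4 of -0.45 (SE 0.44).

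The knockout and drug differences were compared directly as the KO-control log2 fold change minus the AzadC-vehicle one, a contrast in which the 2 sides share no library. By edgeR's quasi-likelihood test it was above 0 for 11 of the 33 tested members and below 0 for 0, where 2.2% of all genes were called in each direction. These were Trem2 (2.07), Csf1r (1.86), Cd53 (1.84), Adgre1 (1.78), Lyz2 (1.64), C1qb (1.52), Ptprc (1.21), Tyrobp (1.20), Cx3cr1 (1.14), Fcgr3 (1.05) and Laptm5 (1.0). The count moved between 6 and 19 when single libraries were left out, with 6 without KO library 2, AzadC library 1 or control library 2, 7 without KO library 3, AzadC library 3 or vehicle library 1, and 19 without control library 1. It was 3 with the muscle covariate (Csf1r, Adgre1 and Fcgr3), among 209 genes above 0 in all. DESeq2 gave 21 members among 755 genes, where the main fit had 11 among 382. With the replicate block the count of members was 10, of which 9 were shared: Fcgr3 (edgeR adjusted p = 0.0684) and Ptprc (edgeR adjusted p = 0.0509) no longer passed and Aif1 (1.41, edgeR adjusted p = 0.0444) did. Csf1r and Adgre1 were the 2 of the 11 that passed under all 19 alternatives run. For Siglec1 the difference was 0.03 (SE 0.84, edgeR adjusted p = 0.997) and for Lgals3 -0.60 (SE 0.67, edgeR adjusted p = 0.683), each with an error wide enough to hide a change of 1 on the log2 scale.

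Set against each other, KO shelves were higher than AzadC shelves for 22 tested members and lower for 0 by edgeR's quasi-likelihood test (6.31% of all genes were higher and 4.31% lower). All 3 KO values exceeded all 3 AzadC values for 27 of the 33 tested members (16% of all tested genes, with 14.2% wholly below). Csf1r was higher by 1.32, Adgre1 by 1.53 and Trem2 by 1.63 on the log2 scale. Siglec1 (0.17), Lgals3 (0.61), Itgam (-0.14), Itgb2 (0.01) and Pf4 (0.00) were among the 11 that did not pass. So was Lyz2, which was called in the contrast of both differences. The count was 14 with the muscle covariate, where 819 genes in all were higher, beside 1093 without it.

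In vehicle against control shelves 2 of the 33 tested members, Csf1r (0.54, SE 0.14, edgeR adjusted p = 0.046) and Lyz2 (1.02, SE 0.22, edgeR adjusted p = 0.0278), were higher by edgeR's quasi-likelihood test and 0 lower (1.46% of all genes were higher and 2.06% lower). The vehicle libraries lay wholly above the control libraries for 2 members, Csf1r and Lyz2, and wholly below for 1, Cd36 (11.2% and 11.5% of all genes). The count was 0 to 2 when single libraries were left out: 1 without vehicle library 1 or vehicle library 2, and 0 without vehicle library 3, control library 2 or control library 3. The lowest vehicle library of Lyz2, at 6.43 CPM, stood next to the highest control library, at 5.93 CPM.

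Members differed in how far they moved. To describe this, the mean log2 CPM of Csf1r, Ptprc, Tyrobp, Fcer1g and Laptm5 was taken off each library, leaving a relative level for the other 28 tested members. That 5-gene mean was 4.48 ± 0.02 in KO, 3.39 ± 0.07 in AzadC, 2.82 ± 0.17 in vehicle and 2.63 ± 0.23 in control shelves (log2 CPM, SD, n = 3 each). Relative to it, Siglec1 (1.37), Lyz2 (0.76), Trem2 (0.66), Cd84 (0.64) and Adgre1 (0.63) were higher in KO than in control shelves with no overlap between libraries. These are 5 of the 28, where 1.57% of all tested genes were so placed. Lyve1 (-2.32), Cd14 (-1.53), Pf4 (-1.50), Itgb2 (-1.07), Coro1a (-1.07), Mrc1 (-0.57), Cd83 (-0.50) and Cx3cr1 (-0.16) were lower with no overlap, as were 92% of all genes.

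The C1q chains lay between 0.36 and 0.57 higher, with overlapping libraries. Aif1, Cd36 and Spi1 kept to the 5-gene mean, at 0.02 each. These values are a description, with no test; the exact permutation test cannot go below p = 0.10 with 3 libraries against 3. Without control library 1, 12 members rather than 5 lay higher with no overlap, though leaving out a library cannot lower such a count. On the log2(CPM + 1) scale 4 lay higher and 11 lower. The share over all genes was not taken for these settings, so their counts have no background beside them. In AzadC against vehicle shelves the relative level was higher with no overlap for Siglec1 (2.47), Lgals3 (2.10), Fcgr3 (0.67) and Ctss (0.46), 4 of 28 where 0.358% of all genes were. It was lower for Pf4 (-0.97) and Cd83 (-0.59), as for 66.7% of all genes. Siglec1 and Lgals3 were near the floor in vehicle shelves, so their relative levels there are imprecise.

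**Figure D3:**
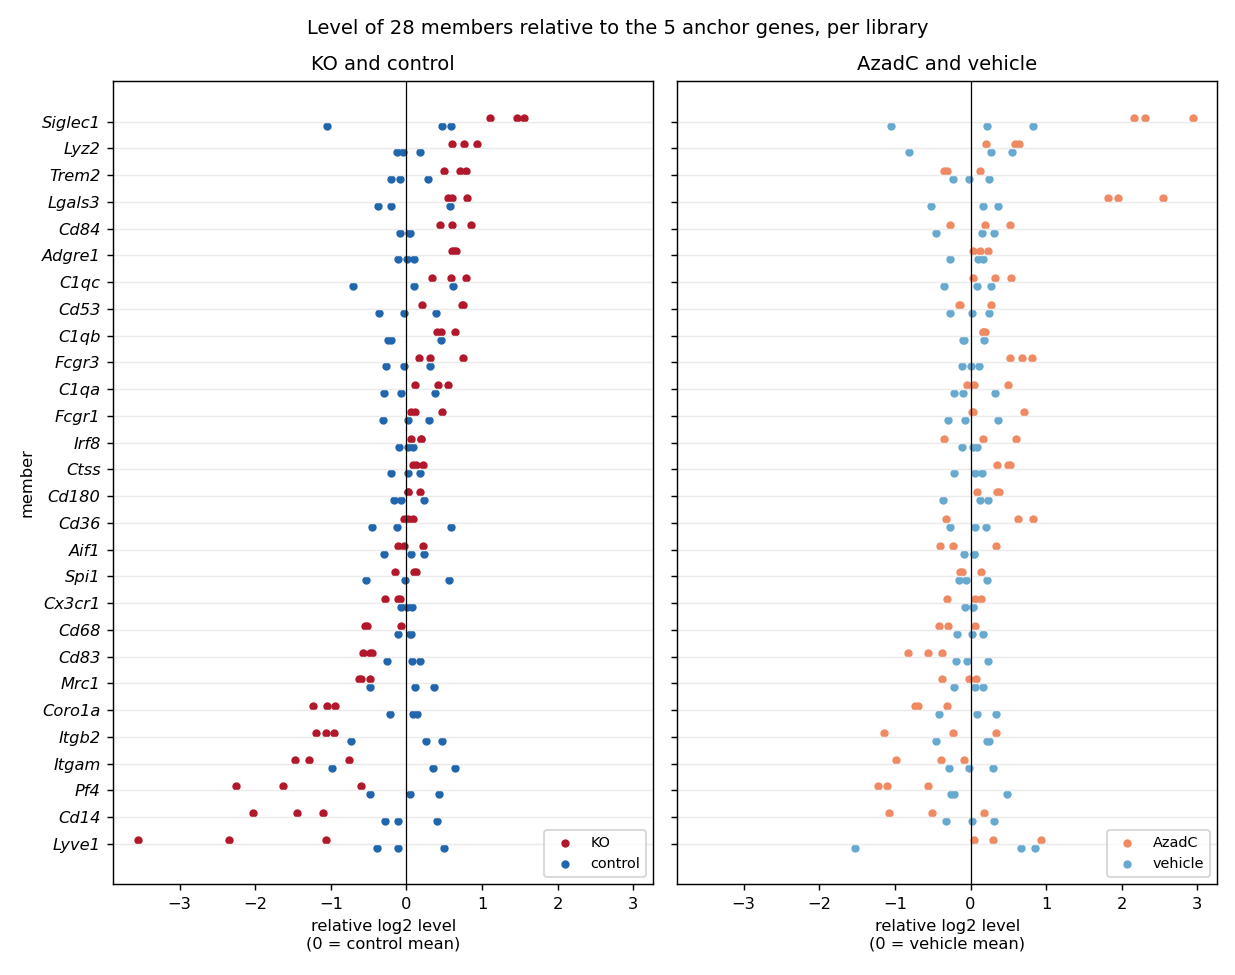
Log2 level of 28 members relative to the mean of 5 anchor genes, set to 0 at the mean of control (left panel) or vehicle (right panel); points are libraries. Siglec1 sits at the top of the left panel with a KO minus control difference of 1.37 and Lyve1 at the bottom with -2.32; in the right panel Siglec1 and Lgals3 of AzadC shelves stand apart at 2.47 and 2.10.

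Levels per transcript length, in the TPM values the authors deposited, ordered the members. In KO shelves the highest were Tyrobp at 77.8 ± 2.72 TPM and C1qb at 76.5 ± 5.39 TPM (SD, n = 3 each), which did not differ beyond their spread. C1qa followed at 52.6 ± 7.34 TPM, then C1qc, Lyz2, Csf1r and Fcer1g between 44.7 and 45.5 TPM, again within their spread. Control shelves had Tyrobp (18.2 ± 3.26 TPM), C1qb (16.6 ± 7.64 TPM), Coro1a (16.5 ± 2.87 TPM), Fcer1g (14.8 ± 3.78 TPM) and Pf4 (14.3 ± 6.41 TPM) at the top, not separated by their SDs. Lyz2 ranked 5 of 35 in KO, 3 in AzadC, 6 in vehicle and 11 in control shelves. Coro1a ranked 9 in KO and AzadC, 4 in vehicle and 3 in control shelves. Itgam, Siglec1, Cd14 and Itgb2 lay between 1.03 and 1.17 TPM in KO shelves.

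Other genes of macrophage function were followed in lists chosen by role, naming from each some of those with the smallest adjusted p and, for most counts of 5 or fewer, the others counted. Of 29 tested further Fc, lectin and pattern receptors, 15 were higher and 0 lower in KO against control shelves, with a median log2 fold change of 1.73. Mpeg1, the pore-forming perforin-2 of macrophages, stood at 50.4, 50.9 and 55.2 CPM in KO shelves, 14.5, 18.6 and 16.1 CPM in AzadC shelves, 12, 7.55 and 7.30 CPM in vehicle shelves and 9.06, 5.82 and 6.50 CPM in control shelves (KO against control 2.86, SE 0.20, edgeR adjusted p = 9.05e-07). C3ar1, the receptor for the C3a fragment, changed by 2.63. Of 19 genes of ITAM and Syk signalling, 15 were higher and 0 lower, led by Dock2 (2.04), Arhgdib (1.08) and Rac2 (1.98), regulators of the cytoskeleton in blood cells. Against vehicle 7 of the 19 were higher and 0 lower.

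Of 21 lysosomal and degradative genes 15 were higher and 0 lower, with a median of 0.49. Ctsb, cathepsin B, stood at 433 ± 12 CPM in KO and 191 ± 16 CPM in control shelves (SD, n = 3 each; 1.18, SE 0.06, edgeR adjusted p = 1.07e-07), followed by the protease legumain (Lgmn, 1.10) and cathepsin D (Ctsd, 0.91). Many of these genes are active in every cell type. Of 15 genes of resident macrophages 8 were higher, with Selenop (1.74), Lgmn and Stab1 (1.13) leading, and 1 lower (Dab2, -0.40). Of 16 microglia-associated genes 5 were higher and 0 lower, among them Fcrls (1.83), P2ry6 (1.69), Gpr34 (1.79) and P2ry12 (1.41). Of 16 myeloid chemokine and cytokine genes 6 were higher and 0 lower, led by the chemokines Ccl6 (2.46), Ccl9 (2.66) and Ccl3 (2.75).

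Of 17 myeloid transcription factors 2 were higher and 4 lower. Among the lower were Zeb2 (-0.50), Klf4 (-1.63) and Runx1 (-1.11), all also used by non-myeloid cells, and Irf5 (1.5) and Tfec (1.74) were higher. Of 12 CSF1R ligands and myeloid growth factor receptors 5 were higher, Kit (0.83), the interleukin 10 receptor chain Il10ra (1.96), Csf3r (1.72), Il6ra (2.02) and Il4ra (0.80), and 1 lower, Csf2ra (-0.52). Csf1, the ligand of CSF1R, named here after its values were seen, stood at 17.5, 17.5 and 14.5 CPM in KO shelves and 15.8, 15.7 and 14.2 CPM in control shelves (0.11, SE 0.11, edgeR adjusted p = 0.563). It was higher in KO than in vehicle shelves (0.47, edgeR adjusted p = 0.0154).

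Of 19 genes for the uptake of apoptotic cells 3 were higher, Stab2 (1.59), Gas6 (0.64) and Megf10 (1.09), and 4 lower, Tyro3 (-0.29), Axl (-0.35), Itgb5 (-0.30) and Gulp1 (-0.44). Of 14 complement genes other than C1q 2 were higher, among them C2 (3.04), and 2 lower, Colec12 (-0.56) and the membrane inhibitor Cd55 (-2.28). Of 9 genes of class II antigen presentation 1 was higher, the invariant chain Cd74 (2.79, SE 0.62, edgeR adjusted p = 0.00931).

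Markers of other blood cells and tissue types were followed beside the members. Of 7 tested dendritic cell genes and 9 monocyte genes, 0 were called in KO against control shelves by edgeR's quasi-likelihood test (at an unadjusted p below 0.05, 0 dendritic cell genes, and 2 monocyte genes higher and 2 lower). The monocyte list summed to 2023 to 2476 CPM in KO and 2014 to 2513 CPM in control libraries, far above the summed members. Which cells made these transcripts was not tested, so the list does not show the level of monocytes. Of 8 neutrophil genes 1 was higher, the receptor Csf3r; the neutrophil list summed to 10.4, 9.01 and 14.7 CPM in KO libraries and 10.4, 12.6 and 7.64 CPM in control libraries, but reached 45.4 CPM in AzadC library 2 and 68.1 CPM in vehicle library 2. Of 5 mast cell genes 1 was higher, Kit, and 4 of the 12 listed genes were at 0 counts in all 12 libraries. Of 7 tested lymphocyte genes 2 were higher, Ighm (1.59) and Cd79b (1.77), and 4 of the 21 listed were at 0 in all libraries. Of 9 osteoclast genes 1 was lower, Nfatc1 (-1.14).

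Among non-blood lists, 13 of 19 skeletal muscle genes were higher in KO against control shelves, with a median of 3.25, led by Neb (3.32), Pax7 (4.12) and Des (2.72). Against vehicle 0 of the 19 were called by edgeR's quasi-likelihood test, with a median of 1.63 and 6 higher at an unadjusted p below 0.05, and against AzadC 4 were higher. Of 20 palatal mesenchyme genes 7 were lower, led by Mn1 (-0.62), Pdgfra (-0.50) and Twist1 (-0.76). Of 20 endothelial genes 2 were lower, Erg (-1.78) and Cldn5 (-0.80), and of 10 lymphatic endothelial genes 3 were lower, Mmrn1 (-0.95), Nrp2 (-0.67) and Flt4 (-0.59), and 1 higher, Stab2. Of 19 erythroid genes 1 was higher (Tfrc, 0.59) in KO against control shelves. In KO against vehicle shelves 1 of the 19 was higher and 7 lower (median -0.82), in KO against AzadC shelves 1 was higher and 6 lower, and in vehicle against control shelves 6 were higher and 0 lower (median 0.93). In KO against control shelves, of 18 epithelial genes 1, of 11 Schwann cell and glial genes 1 (Cdh19, 1.32), and of 11 neuronal genes 1 was higher (Tubb3, 1.01) and 1 lower (Nefl, -0.80). The part of these other cell types in the members' differences was not tested. The fits with the muscle covariate do not test it either, because summed muscle level was higher in every KO than in every control library.

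**Figure D4:**
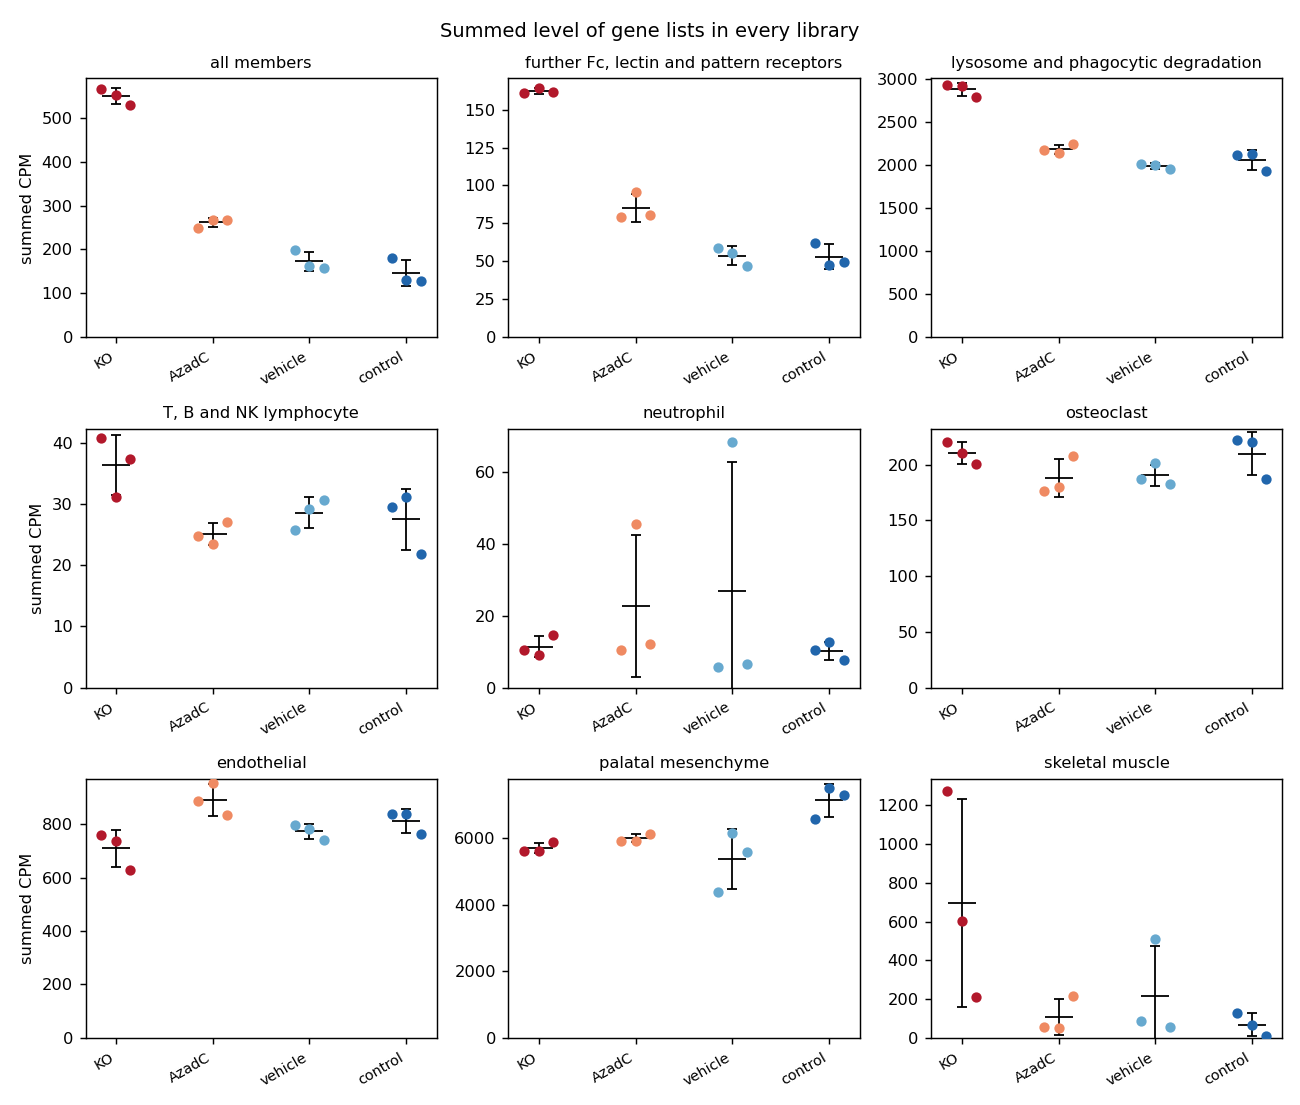
Summed level in CPM (linear axis) of the members and of 8 other gene lists in every library; points are libraries, bars are mean and SD of 3, cut at 0. The members and the Fc, lectin and pattern receptors have their 3 KO libraries apart from all others, while the neutrophil list is raised in vehicle library 2 (68.1 CPM) and the muscle list in KO library 1 (1273 CPM).

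The RefSeq table of promoter windows matched 25 of the 35 members, with 30 windows of 300 bases. The 10 members without a window were Csf1r, Adgre1, Tyrobp, Spi1, C1qa, Siglec1, Cd14, Cd83, Itgb2 and Lyve1, so the shares below leave out several leading members. The values that follow are for the 30 windows. Their median number of CpG dinucleotides was 4.5, against 7 over all 32851 windows, and 86.7% of member windows against 56.5% of all windows held 9 or fewer. GAGGAA, on either strand, occurred in 53.3% of member windows (16 of 30) and in 28.3% of all windows. These shares are a description of letters and show neither methylation nor binding. Windows of the same gene overlap in part for Fcgr3, Cd180 and Ptprc.

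Lyz2 and Lgals3 are shown as the CpG-poor and CpG-rich ends among members with a window that were high in both KO and AzadC shelves. The Lyz2 window is at chr10:117282223-117282522 on the minus strand and the Lgals3 window at chr14:47373610-47373909 on the plus strand (GRCm38.p6), 5′ to 3′, with each CG in capitals.
Lyz2: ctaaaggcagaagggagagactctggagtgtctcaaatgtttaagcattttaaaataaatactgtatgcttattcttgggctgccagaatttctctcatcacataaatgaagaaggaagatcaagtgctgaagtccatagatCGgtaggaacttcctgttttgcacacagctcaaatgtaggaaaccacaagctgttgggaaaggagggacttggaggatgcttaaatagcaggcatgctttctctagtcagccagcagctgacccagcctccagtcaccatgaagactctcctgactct
Lgals3: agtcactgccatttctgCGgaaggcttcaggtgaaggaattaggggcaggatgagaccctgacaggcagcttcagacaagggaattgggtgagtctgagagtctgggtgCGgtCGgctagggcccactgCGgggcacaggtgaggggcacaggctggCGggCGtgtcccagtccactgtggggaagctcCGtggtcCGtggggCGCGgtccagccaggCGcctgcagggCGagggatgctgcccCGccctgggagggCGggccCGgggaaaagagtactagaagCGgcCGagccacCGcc
The Lyz2 window held 1 CpG and no GAGGAA, and the Lgals3 window held 18 CpG and no GAGGAA. The highest CpG count among members was 38, in a window of Irf8.

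**Figure D5:**
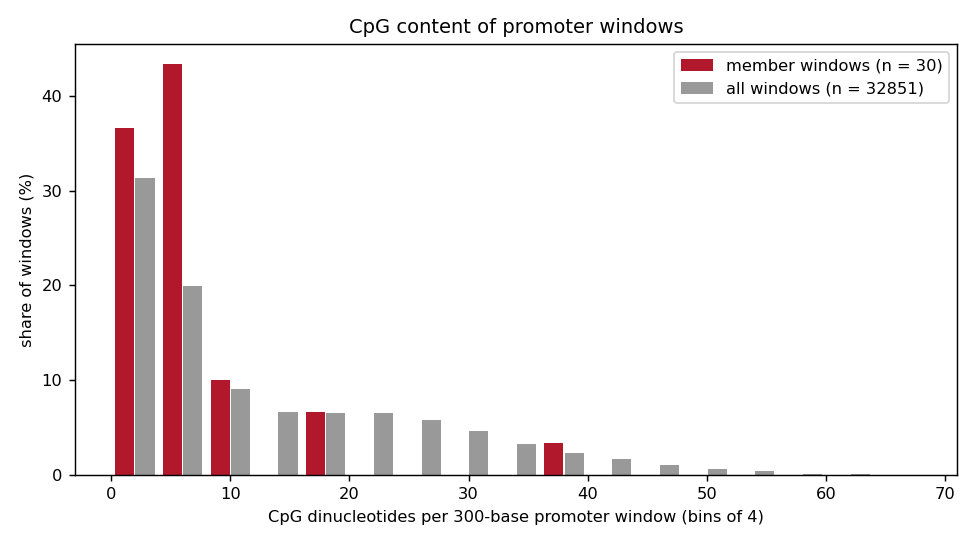
Share of promoter windows (percent) by the number of CpG dinucleotides per 300 bases, in bins of 4, for 30 member windows and all 32851 windows. Most member windows lie in the lowest bins (86.7% with 9 or fewer CpG), and 1 window holds 38.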

How the data were processed

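The files deposited by the authors hold expected counts (RSEM's estimated reads per gene), TPM and FPKM for each library, per the file headers. The submitters' processing notes name RSEM 1.3.1 and STAR 2.7.0, the build mm10, and FastQC, DESeq2 and Trim Galore without versions; the strand setting of the counting is not given in the sources used here, so reads of a gene and an overlapping antisense gene may not be separated. RSEM shares reads between near-identical genes; the copies Csf1r-ps and Lyz1 drew at most 2 counts in any library. TPM values were used as deposited, to order genes within a library; FPKM values were not used.

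Expected counts were rounded and tested in edgeR 4.0.16 (R 4.3.3) with filterByExpr, TMM scaling and the quasi-likelihood F test, one mean per group over all 12 libraries, 17335 genes, Benjamini-Hochberg adjustment and a threshold of 0.05. SE is the log2 fold change over the square root of F. CPM are rounded counts scaled to library size after TMM, and the relative level uses log2 CPM with a prior count of 2. Depth was 12640536 to 33113790 counts per library, and 3 libraries a group limit the precision. DESeq2 1.42.0 and limma 3.58.1 voom, RLE scaling, other filters, fewer groups, a replicate block and leaving out each library were alternatives.

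The members, lists and tests were chosen with earlier results of these data known. All 35 members are named; from each other list up to 3 genes with the smallest adjusted p in KO against control are named, and those that complete a count of 5 or fewer were named after their values were seen. Some of these genes are not reported here. Bai1 and Ahsp, which were listed, matched no row by symbol. Replicate numbers were checked: deviations of KO and control libraries with the same number correlated at 0.398, 0.131 and 0.336. The highest correlations with another number were 0.0251, 0.0962 and -0.147, and no other comparison put the same number first in all 3 pairs. The labels name no pairs, and 3 libraries a group are weak ground for pairing, so the main test used none and the replicate block was an alternative. No 2 libraries of a group agreed within sampling noise.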

Additional observations from a re-analysis of the deposited data

Results flagged for a closer look

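For 11 members the KO-control log2 fold change exceeded the AzadC-vehicle one by edgeR's quasi-likelihood test of the difference itself. The differences were 1.86 for Csf1r (SE 0.19, adjusted p = 0.000131), 1.78 for Adgre1 (SE 0.24, adjusted p = 0.00164), 1.14 for Cx3cr1 (SE 0.21, adjusted p = 0.00941), 1.64 for Lyz2 (SE 0.31, adjusted p = 0.0106), 2.07 for Trem2 (SE 0.41, adjusted p = 0.0138) and 1.20 for Tyrobp (SE 0.24, adjusted p = 0.0155). Those of Ptprc (1.21, SE 0.28, adjusted p = 0.0274), C1qb (1.52, SE 0.35, adjusted p = 0.028), Fcgr3 (1.05, SE 0.26, adjusted p = 0.0393), Cd53 (1.84, SE 0.46, adjusted p = 0.0406) and Laptm5 (1.0, SE 0.26, adjusted p = 0.0499) lay closer to the threshold. Skeletal muscle genes differed between the same libraries, and with their level as a covariate Csf1r (1.73, adjusted p = 0.00316), Adgre1 (1.77, adjusted p = 0.0124) and Fcgr3 (1.35, adjusted p = 0.0442) still passed. Of these 3, Csf1r and Adgre1 passed under all 19 alternatives run; Fcgr3 lost its call under 11 of them, among them limma-voom, the replicate block (adjusted p = 0.0684) and leaving out KO library 2 (0.87, adjusted p = 0.108). Ptprc did not pass with the replicate block either (adjusted p = 0.0509). The contrast also takes in how vehicle and control shelves differed, where Lyz2 was higher by 1.02 and Csf1r by 0.54 in vehicle shelves. Set directly against AzadC shelves, KO shelves were called higher for Csf1r but not for Lyz2.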

How the results depend on the processing

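The 28 members higher in KO than in control shelves were 25 to 29, and the 27 higher than in vehicle shelves 26 to 28, under every alternative run, and 0 were lower. Over all genes, 808 to 1598 were then higher than in control shelves (1358 in the main fit) and 552 to 1336 lower (1115). Against vehicle 716 to 1524 were higher (1162 in the main fit) and 294 to 971 lower (716). For AzadC against vehicle (0 members) DESeq2 gave 8, no filter 11 and leaving out single libraries 0 to 3. Over all genes, 1 was higher in the main fit, 81 by DESeq2, 102 with no filter and 0 to 16 without single libraries. For vehicle against control (2) limma-voom and a fit of only those groups gave 0, the muscle covariate 1 and leaving out single libraries 0 to 2. Over all genes, 253 were higher in the main fit, 289 by limma-voom, 143 with only those groups and 333 with the muscle covariate. Without single libraries 46 to 205 were. For the difference of both contrasts (11) DESeq2 gave 21, no filter 19, the muscle covariate 3 and leaving out single libraries 6 to 19. The calls above 0 over all genes moved too, from 382 to 755, 704, 209 and 168 to 439 in the same order. KO against AzadC (22) gave 14 with the muscle covariate, where 819 genes in all were higher, beside 1093 in the main fit. The relative level higher in KO shelves (5) became 9 with all other members as anchors, 4 on the log2(CPM + 1) scale and 6 to 12 without single libraries; the 8 lower became 6, 11 and 8 to 10. In AzadC shelves the 4 higher became 4 to 7 without single libraries, and the 2 lower became 4 with all other members as anchors and 2 to 4 without single libraries. These relative-level counts are of libraries without overlap, which leaving out a library can only keep or raise, so their ranges without single libraries test nothing. Their share over all genes was taken for the main setting only. The replicate block left 28 of 28 calls in KO against control, also with only those 2 groups in the fit, and gave 10 for the difference (9 of the 11 and Aif1) and 21 of the 22 for KO against AzadC, without Fcgr3; it changed no other count.

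The sign turned for values that did not pass. Some were near 0, while others, such as Lyve1 against vehicle (0.68, SE 0.86), were not but had wide errors. Without single libraries, Lyve1 ranged between -1.43 and 0.23 against control and between -0.44 and 1.22 against vehicle, Pf4 between -0.18 and 0.88 against control, and Itgam between -0.31 and 0.090 against vehicle. The difference for Siglec1 was -0.052 by limma-voom, -0.78 with the muscle covariate and between -0.62 and 0.58 without single libraries, and that for Lgals3 was -1.23 with the muscle covariate and lay between -0.84 and 0.15 without single libraries (the highest without control library 1). The cause of these changes was not tested. The few counts of Lyve1, Cd163 and Timd4 per library limit what can be shown of them at these depths.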
